A study of Mus musculus with 3 samples.

Results

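Among the endothelial cells (ECs) sorted from fetal mouse bone marrow (BM), 349 cells carried the arterial connexin gene Gja4. They were picked by a rule on 4 genes. A cell had to hold at least 20 molecules in all, at least 5 molecules of the endothelial genes Pecam1 and Kdr together making up at least 5% of its molecules, no molecule of Ptprc (the gene of the pan-leukocyte antigen CD45) and at least 2 molecules of Gja4. Of the 4043 cells of the library, 3223 passed the limits on Pecam1 and Kdr and 270 of these were set aside for Ptprc. The remaining 2953 ECs held the 349 Gja4-positive ECs, or 11.8% (exact 95% interval 10.7 to 13), 2486 cells with no Gja4 molecule, called Gja4-negative ECs here, and 118 cells with exactly 1 molecule that entered neither group. The whole series held 24875 cells.

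The series measured a custom panel of Wnt pathway genes and cell type markers in single cells, with 1 library in each of 3 groups. All mice were of the strain C57/B6 and wild type (WT), and no group carried a mutation or received a treatment. E18.5 EC, the library described here, held ECs from BM of E18.5 embryos, E18.5 BM cells held embryonic marrow from which mature haematopoietic cells had been removed with lineage antibodies, and Adult BM cells held adult marrow that was also depleted of lineage cells. The methods describe further depletion rounds for adult marrow, against CD71 and then CD117, CD45 and Ter119, without saying whether they apply to this library. The adult age is not given in the labels, and the methods state that several embryos or mice went into each library. The gate of E18.5 EC is given as CD31 with endomucin in one place and as CD31 alone in another. Arterial endothelial cells (AECs) are described by the study as low in endomucin, so the number and kind of Gja4-positive ECs that reached the library depend on the gate. Because a library had no replicate and cells of 1 library are not replicates, no difference was tested, and every interval below is an exact 95% interval that covers counting error only.

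AECs line the vessels that carry blood into the marrow. Notch signalling maintains their identity, with transcriptional repressors of the Hey family among its targets, and connexin 37, the product of Gja4, joins neighbouring AECs by gap junctions. Arteries are surrounded by elastic fibres and by mural cells, and in BM they are known as a source of the chemokine Cxcl12 and of stem cell factor (Kitl), which retain and sustain haematopoietic stem and progenitor cells. Sinusoidal ECs, which line the wide, permeable vessels of the marrow, carry scavenger receptors such as Stab1. The study asked whether AECs are a source of Wnt ligands for the fetal niche.

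Gja4-positive ECs held more molecules than Gja4-negative ECs, with a median of 113 (24 to 611) against 70. Outside the 4 genes of the rule they held 88 molecules per cell against 57.7, a ratio of 1.53. Of these molecules, 6 abundant higher targets named below took 31% against 3.75%. How far sampling or expression gave the gap was not tested. Levels are given as molecules per 10000 panel molecules outside those 4 genes, summed over the cells of a group. Gja4 itself, which chose the cells, had a median of 7 molecules (quartiles 3 and 17, highest 81). Pecam1 had a median of 29 molecules in Gja4-positive ECs and 20.5 in Gja4-negative ECs. The 3 targets with most molecules in Gja4-positive ECs outside the rule were Igfbp7 (5805), a secreted protein of the vessel wall, Cxcl12 (1982) and Mgp (1835). The library shared 58 cell barcodes with E18.5 BM cells and 38 with Adult BM cells, close to the 58.9 and 36.3 that random draws from the label set would give, and 1 Gja4-positive EC had a barcode that also passed the rule in the adult library.

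Of the other 5 arterial markers given for these cells, 4 were present in 50% or more of them and Mgp in few. Sema3g, a secreted semaphorin of arterial endothelium, was seen in 71.6% of Gja4-positive ECs (66.6 to 76.3) with a median of 3 molecules and a highest value of 31. In Gja4-negative ECs it was seen in 13.9% (12.5 to 15.3), and the levels were 514.8 and 42.8, a ratio of 12 (10.9 to 13.2). Hey1 was also seen in 71.6% of the cells, against 8.97%, with levels of 441.5 and 31.5 (ratio 14, 12.6 to 15.6). Mecom, a zinc finger transcription factor of arterial and haematopoietic stem cells, was seen in 71.1% against 19.4%, with levels of 328.9 and 44.7 (ratio 7.36, 6.66 to 8.14). Fbln5, which helps assemble elastic fibres, was seen in 50.1% against 46.9% of the cells, yet its level was 567.6 against 228 (ratio 2.49, 2.35 to 2.64). As background, 706 cells of the same library with 2 or more Ptprc molecules that failed the endothelial limits had a median depth of 126.5 molecules, and Sema3g was seen in 0.567% of them, Hey1 in 3.68%, Mecom in 1.7% and Fbln5 in 1.56%.

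The number of markers seen together varied widely from cell to cell. Of the 349 cells, 219 (62.8%, 57.4 to 67.8) had at least 3 of the 5 markers, 23 had all of them and 28 had none. Among Gja4-negative ECs, 101 cells (4.06%, 3.32 to 4.91) had at least 3 and 845 had none. Most of the cells thus carried several of the 5 markers, and a minority few or none. The markers were given for these cells, so the counts describe the cells and do not test the label of AECs. Cav1, whose protein Caveolin-1 the study used to mark AECs, had 0 molecules in Gja4-positive ECs and 5 in Gja4-negative ECs, too few to compare. Gated on Sema3g in place of Gja4, at 2 or more molecules, the ECs gave 370 cells, and 219 of these were Gja4-positive ECs, which made up 59.2% of the cells with Sema3g and 62.8% of those with Gja4.

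**Figure D1:**
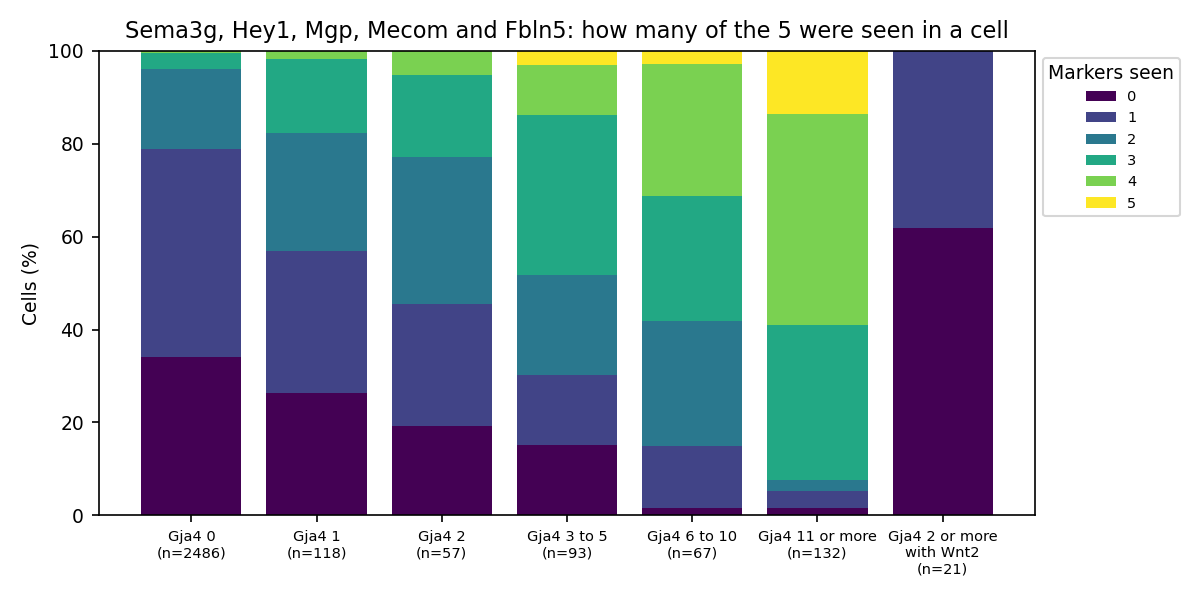
Share of cells (%, vertical axis) with 0 to 5 of the markers Sema3g, Hey1, Mgp, Mecom and Fbln5 among ECs of E18.5 EC, grouped by their number of Gja4 molecules, with the number of cells under each bar. At least 3 markers were seen in 4.06% of cells without Gja4 and in 92.4% of those with 11 or more molecules, while none of the 21 Gja4-positive cells with Wnt2 (last bar) had more than 1.

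The limit of 2 Gja4 molecules fell within a gradient. The 118 cells with 1 molecule stood at 98.8 for Sema3g, 92.7 for Hey1 and 85.3 for Cxcl12. The 57 cells with exactly 2 molecules, just inside the limit, stood at 136, 174.9 and 244.2, and the 35 cells with 3 molecules at 185.8, 150.5 and 310.7. At 11 or more Gja4 molecules (132 cells) the levels were 751.3, 570.4 and 939.5. Stab1 ran the other way, from 831 without Gja4 through 752.2 at 2 molecules to 144.7 at 11 or more, and so did the G1 cyclin gene Ccnd1, from 1041.5 through 563.4 to 119.7. A cell's depth also sets how many Gja4 molecules are seen in it, and the cells with 2 molecules had a median of 86 molecules in all. These bins share the gene that chose the cells and are given as a description.

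**Figure D2:**
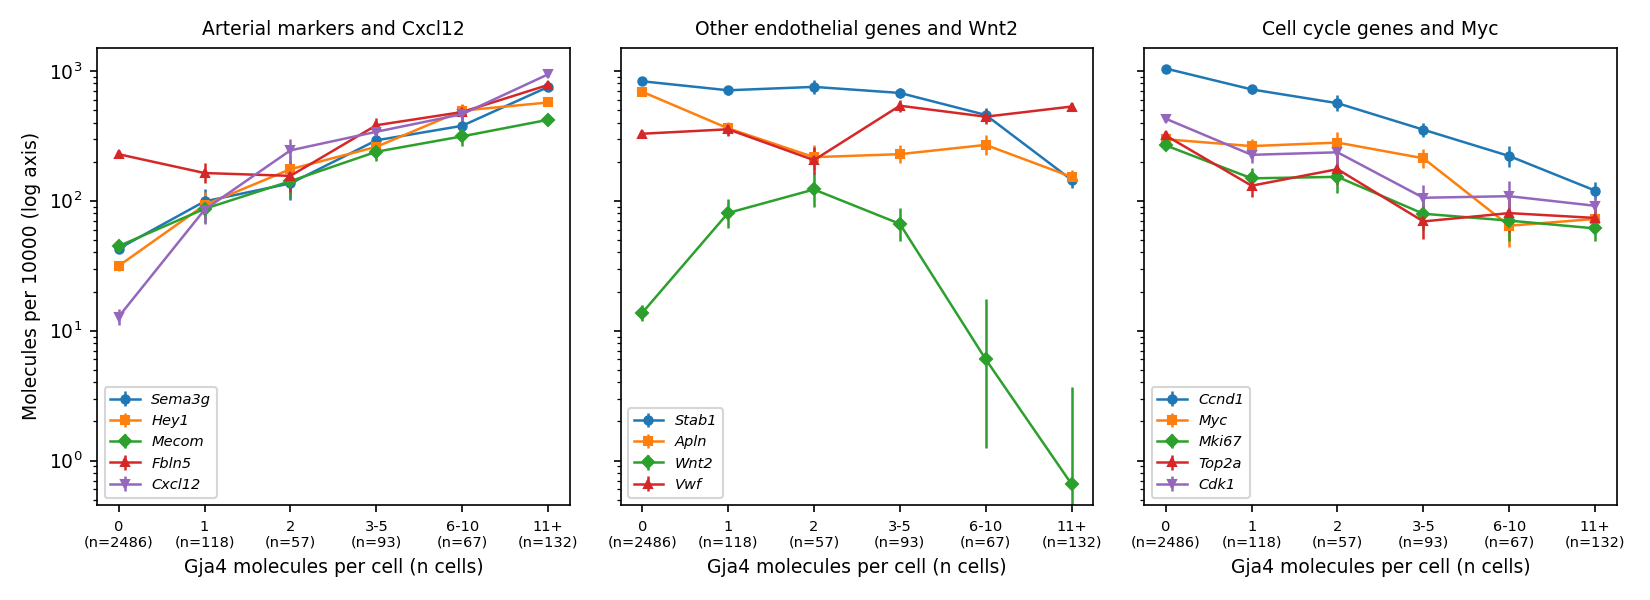
Levels (molecules per 10000 panel molecules outside the 4 genes of the rule, log axis) of 14 targets in ECs of E18.5 EC, by the number of Gja4 molecules in the cell. Points are sums over the cells of a bin and bars are exact 95% counting intervals. Sema3g went from 42.8 to 751.3 and Cxcl12 from 12.8 to 939.5 across the bins, and Stab1 went from 831 to 144.7. Wnt2 was highest, at 122.1, in cells with 2 Gja4 molecules, where it had 44 molecules in 8 cells.

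Across the panel, 107 targets outside the rule had a molecule in the library and 86 had one in Gja4-positive ECs. A target is called higher or lower below where its level differed at least 2-fold, the counting interval of the ratio left out 1 and both groups together held 20 or more molecules. This was a rule of size in 1 library and no test. Of 69 targets with enough molecules, 20 were higher in Gja4-positive ECs, 29% of those compared, and 14 were lower, 20.3%. The median over the 69 targets was -0.09 on the log2 scale. Cxcl12, Mgp, Hey1, Sema3g, Mecom and Fbln5 alone took 31% of the molecules of Gja4-positive ECs and 3.75% of those of Gja4-negative ECs, which lowers the share left for every other target. Counted as molecules per cell, a scaling added once the values were known, 25 targets were higher and 6 lower, so that 80.6% of the calls were on the higher side against 58.8%, and the median of all targets moved to 0.52. Among the 6 that stayed lower were Ccnd1, Cdk1, Top2a, Apln and Mki67.

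**Figure D3:**
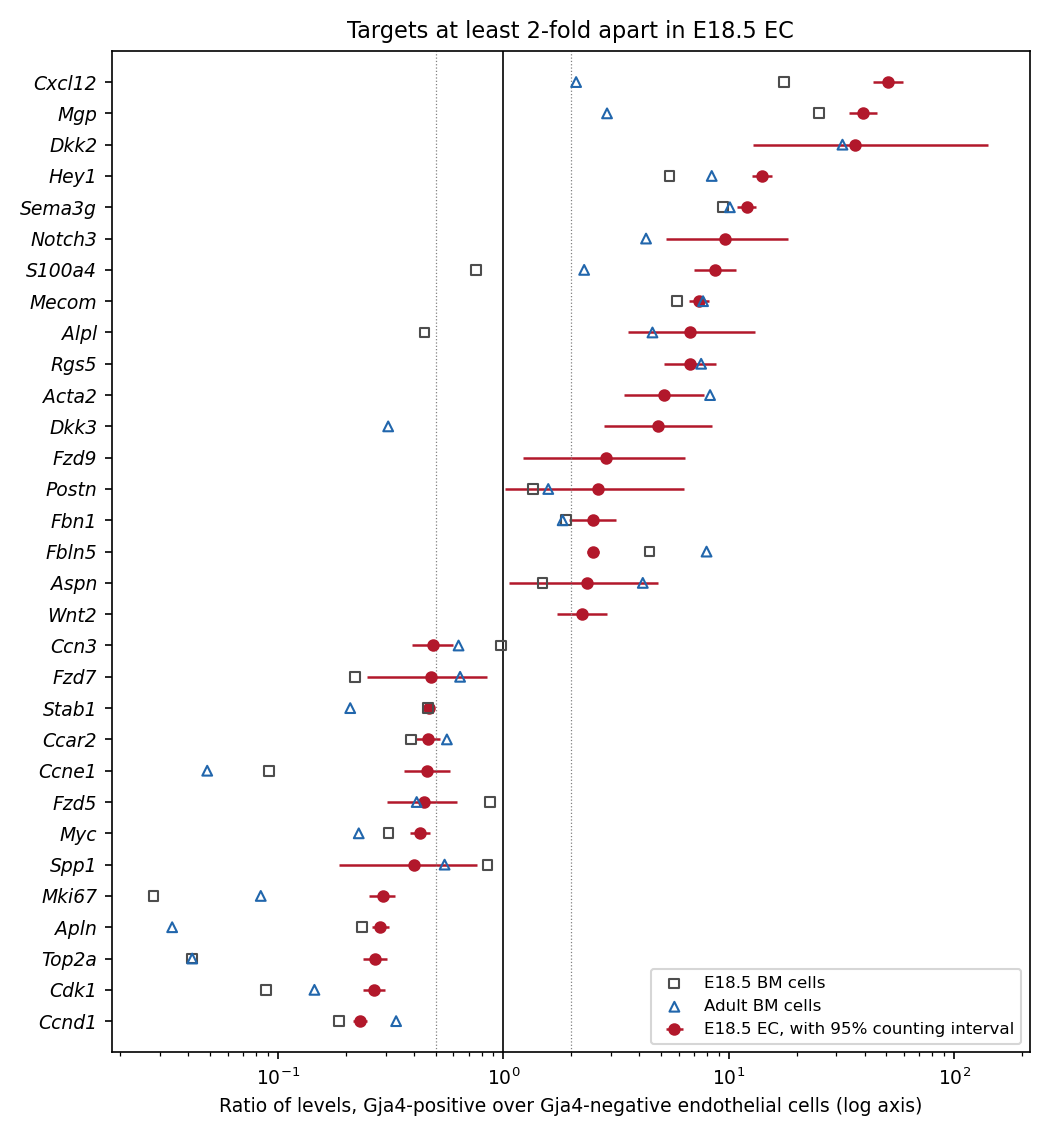
Ratio of levels between Gja4-positive and Gja4-negative ECs (log axis) for targets called higher or lower in E18.5 EC, with exact 95% counting intervals, and the ratios of the same targets under the same rule in the other libraries where they had 20 or more molecules. Cytl1, with no molecule in Gja4-negative ECs, has no ratio and is left out. Cxcl12 stood at 50.6 and Ccnd1 at 0.231 in E18.5 EC, and dotted lines mark 2-fold. The lower targets plotted all lay below 1 in each library, while the higher targets were not all above 1 in the other libraries.

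Among the niche factors, Cxcl12 had the widest ratio of all targets with 20 or more molecules that were seen in both groups. It was seen in 178 of 349 Gja4-positive ECs (51%, 45.6 to 56.4) and in 75 of 2486 Gja4-negative ECs (3.02%, 2.38 to 3.77). Its level was 645.4 (617.3 to 674.4) against 12.8, a ratio of 50.6 (43.5 to 59.2), and after each cell was thinned to 50 molecules outside the rule's genes, which left out 94 and 1334 shallower cells, it was seen in 45.9% against 3.12%. Blood cells of the library had it in 1.27%. The molecules were uneven within the group, with a median of 4 in the cells that had any, a highest value of 140, and 81.5% of all molecules in the 55 cells with 10 or more. Kitl, by contrast, was seen in 73.6% against 56.8% of the cells, and its level differed little, at 569.2 against 537.3 (ratio 1.06). The amplicons of Kitl may count the same molecules, so its interval is given for the leading amplicon alone, which had a ratio of 1.06 (0.987 to 1.14). Ptn, which encodes the growth factor pleiotrophin, stood at 81.4 against 89.4 (ratio 0.91, 0.792 to 1.04). Counted per cell, the ratios of Kitl and Ptn were 1.62 and 1.39. Both Cxcl12 and Kitl were found in 148 Gja4-positive ECs, and 299 of the 349 had at least 1 of the 3 factors.

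Cells with and without Cxcl12 differed in other targets too. The 178 Gja4-positive ECs with Cxcl12 stood at 648 for Sema3g, 576.6 for Hey1 and 427.1 for Mecom, against 362.4, 287 and 216.5 in the 171 cells without it. Stab1 showed the reverse, at 152.6 with Cxcl12 and 654.2 without. None of the 55 cells with 10 or more Cxcl12 molecules had 5 or more of Stab1, and 7 of the 54 cells with 5 or more Stab1 molecules had any Cxcl12. Cells with Cxcl12 had a median depth of 132.5 molecules against 103, and across the 349 cells, which share 1 library and differ in depth, Spearman's rho between the molecules of Cxcl12 and Stab1 was -0.437.

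Of the 3 Notch pathway targets seen, Hey1, a marker given for these cells, and Notch3 were called higher and Nrarp was not called. Over all targets, 29% were higher. The median of the list, 3.27 on the log2 scale beside -0.09 over all targets, was the value of Notch3 alone. Notch3, the receptor of mural cells, rested on 35 molecules in 7 Gja4-positive ECs, 20 of them in 1 cell, against 17 molecules in 14 Gja4-negative ECs (ratio 9.62, 5.24 to 18.3), and it was seen in 4.53% of blood cells. Without cells holding 2 or more molecules of the mural, blood, mesenchymal and cartilage lists together, its ratio was 1.18 (0.0249 to 10.5), and it was no longer called. That limit also left out ECs with 2 or more molecules of Srgn, a target of the blood cell list that ECs also express. Nrarp, a feedback inhibitor and direct target of Notch, stood at 156 against 226.8, a ratio of 0.688 (0.624 to 0.757) that was 1.05 when counted per cell. Hey1 and Nrarp, both targets of the pathway, thus lay far apart in the same cells.

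Promoter sequence is shown for Cxcl12 and Sema3g because Cxcl12 had the widest ratio and Sema3g was the arterial marker whose ratio differed least between libraries. The amplicon of Cxcl12 belongs to a transcript on GRCm38 chromosome 6 from 117168574 to 117181366, plus strand, with 4 exons, and that of Sema3g to one on chromosome 14 from 31217860 to 31230352, plus strand, with 16 exons. The 250 bases before the RefSeq gene start in GRCm38.p6 are chr6:117168285-117168534 and chr14:31217623-31217872, both on the plus strand. They are written in lower case, with the core letters TGGGAA of the site bound by RBPJ, the DNA-binding partner of Notch, in capitals where they occur on either strand.
Cxcl12: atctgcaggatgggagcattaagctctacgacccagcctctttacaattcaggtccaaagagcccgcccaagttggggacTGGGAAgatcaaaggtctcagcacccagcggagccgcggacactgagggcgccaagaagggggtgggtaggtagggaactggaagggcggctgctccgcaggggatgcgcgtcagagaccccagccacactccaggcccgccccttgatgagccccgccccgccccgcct
Sema3g: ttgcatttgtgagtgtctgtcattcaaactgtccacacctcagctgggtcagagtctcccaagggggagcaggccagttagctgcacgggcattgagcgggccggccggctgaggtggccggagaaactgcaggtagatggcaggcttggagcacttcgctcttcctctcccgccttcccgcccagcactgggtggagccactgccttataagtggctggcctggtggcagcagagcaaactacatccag
The letters occurred once in the Cxcl12 window and not in that of Sema3g. In windows of the same length they were found in 5 of 20 promoters (25%) of the 16 higher targets that matched the table, namely those of Acta2, Cxcl12, Fbln5, Fbn1 and S100a4. They were in 0 of 10 promoters of 9 lower targets, in 10 of 31 promoters (32.3%) of 22 targets not called, and in 21.6% of all 32851 promoters. The share among the higher targets was near that of all promoters, and a match of 6 letters is no evidence of a bound site.

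Matrix genes of the arterial wall were higher, but a small set of cells carried them. All 3 targets of the list, Mgp, Fbln5 and Fbn1, were called higher, beside 29% of all targets compared. Mgp and Fbln5 are markers given for these cells, so Fbn1 was the only target of the list not already among them. Mgp, an inhibitor of calcification in the vessel wall, stood at 597.5 against 15.2 (ratio 39.3, 34.1 to 45.5). It was seen in only 33 of 349 Gja4-positive ECs (9.46%, 6.6 to 13) and in 2.82% of Gja4-negative ECs, against 1.98% of blood cells. The 23 cells with 10 or more molecules, between 11 and 257 each, held 99.1% of the Mgp and 61.9% of the Fbln5 of the whole group. Without these 23 cells, a choice made after the values were seen, the ratio was 0.407 for Mgp and 1.13 for Fbln5. That cut was made on Mgp itself and in Gja4-positive ECs only, so the fall of Mgp was built in. Gja4-negative ECs kept 4 cells with 10 or more Mgp molecules, which held 78 of the 218 molecules of that group. Fbn1, the gene of the microfibril protein fibrillin 1, was spread more evenly, with 111 molecules in 67 cells and at most 6 in 1 cell (19.2% against 6.15% of cells, ratio 2.49, 1.96 to 3.15).

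The 23 cells rich in Mgp differed from the other Gja4-positive ECs beyond the matrix genes. Their median of Gja4 was 18 molecules and their median depth 231, against 6 and 109.5 in the other 326 cells. They had Sema3g in 22 of 23 cells, Hey1 in 20 and Mecom in 21, at levels of 635.1, 315.5 and 173.2, against 492.3, 465.2 and 358.1 in the others. Cxcl12, however, was absent from 13 of the 23, and stood at 164.9 against 735.5. Igfbp7 was at 103.1 in the 23 cells and 2225.4 in the others, and 20 of the 23 had 0 or 1 molecule of it, compared with 39 of the other 326 and with 407 of 2486 Gja4-negative ECs. Pecam1, part of the rule, had a median of 33 molecules in them. Vwf, the clotting factor stored by ECs, was seen in 22 of the 23, at a level of 740.2. All 28 molecules of Cytl1, a small secreted protein also known from cartilage, lay in 8 of these 23 cells. None was found in Gja4-negative ECs or in blood cells, so that Cytl1 was at least 43.6-fold higher in Gja4-positive ECs when a floor of 3 molecules over the group is set for the Gja4-negative ECs.

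**Figure D4:**
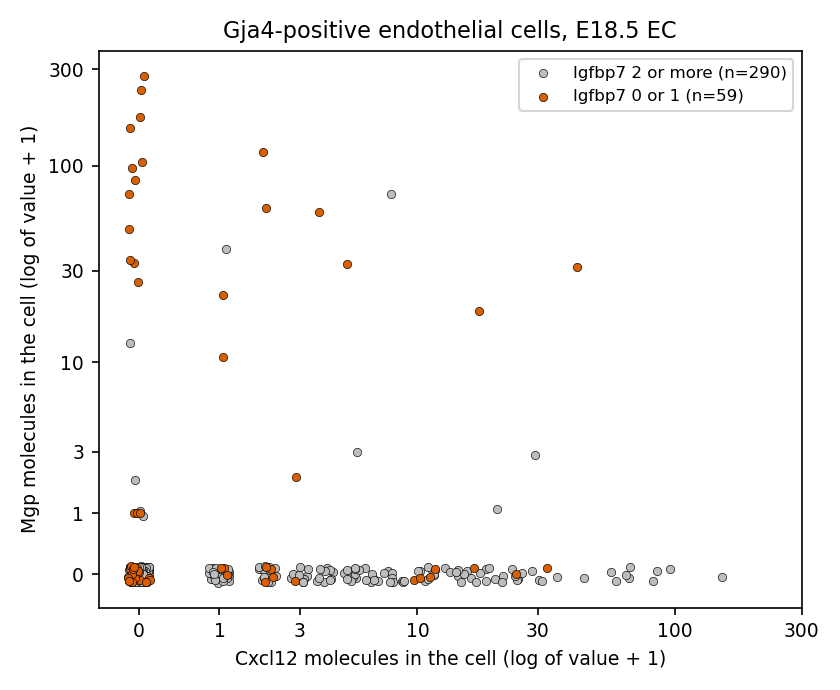
Molecules of Mgp (vertical axis) and Cxcl12 (horizontal axis) in each of the 349 Gja4-positive ECs of E18.5 EC, on log axes of the value plus 1 with slight random offsets, coloured by the number of Igfbp7 molecules. Of the 23 cells with 10 or more Mgp molecules, 13 had no Cxcl12 and 20 had 0 or 1 Igfbp7 molecule.

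Several higher targets were rare. Dkk2, a secreted modulator of Wnt co-receptors, had 31 molecules in 21 Gja4-positive ECs and 4 in 4 Gja4-negative ECs (ratio 36.2, 12.8 to 141.1), and 20 of the 21 cells had 11 or more Gja4 molecules. Dkk3, a divergent member of the same family, had 29 molecules in 15 cells against 28 in 21 (ratio 4.84, 2.78 to 8.44). S100a4, a calcium-binding protein of motile cells, was seen in 17.8% against 4.1% of cells (ratio 8.67, 7 to 10.8), with at most 39 molecules in a Gja4-positive EC and 4 in a Gja4-negative EC. It was also present in 43.2% of blood cells, and the ratio was 1.4 when molecules were counted before the last error correction.

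The study asked which ECs make Wnt ligands. Of the 12 ligands seen in the library, 8 had a molecule in Gja4-positive ECs. They summed to 136 molecules in 48 cells (13.8%, 10.3 to 17.8) against 328 in 132 cells (5.31%, 4.46 to 6.27), at levels of 44.3 and 22.9, and the ratio was 1.94 (1.57 to 2.37). Wnt2, a ligand of the canonical pathway, supplied 94 of the 136 molecules. It was seen in 6.02% of Gja4-positive ECs (3.76 to 9.05), 1.89% of Gja4-negative ECs and 0% of blood cells, and was called higher (ratio 2.24, 1.73 to 2.88). Few cells carried it. The top 10 cells held 84% of its molecules in Gja4-positive ECs, with at most 18 in 1 cell. In Gja4-negative ECs the top 10 held 59.7%, with at most 35 in 1 cell. Wnt11 and Wnt5b had 10 molecules each, Wnt9b 9, Wnt9a 6, Wnt5a 5, and Wnt4 and Wnt10a 1 each. In Gja4-negative ECs, Wnt5b had 70, Wnt9b 36, Wnt9a 10, Wnt11 3 and Wnt5a 3. Wnt11, a ligand of the non-canonical branch, was in 8 cells that all had 11 or more Gja4 molecules (ratio 15.6, 4.01 to 88, on 13 molecules in both groups, too few for a call). Without cells holding 2 or more molecules of the lists of other cell types, its ratio was 2.95 (0.0499 to 56.6). Wnt11 was seen in 1.13% of blood cells (0.49 to 2.22) against 2.29% of Gja4-positive ECs (0.995 to 4.47).

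Most cells with Wnt2 lacked the arterial markers. None of the 21 Gja4-positive ECs with Wnt2 had Sema3g, where 250 of the 328 without Wnt2 did. Hey1 was seen in 3 of the 21, Mecom in 2, Fbln5 in 3 and Mgp in none, and 16 had none of Sema3g, Hey1 and Mecom. All 21 had Stab1, with 6 to 52 molecules (median 13) and a level of 2090.1, against 269.4 in Gja4-positive ECs without Wnt2. Kitl stood at 273.3 against 589.5 and Cxcl12 at 5.06 against 689.4. In 18 of the 21 cells Gja4 was at 4 molecules or fewer, while 1 had 11 or more, and the median depth of 102 molecules was close to the 115.5 of the cells without Wnt2. The 37 Gja4-positive ECs with none of Sema3g, Hey1 and Mecom held 65 of the 94 Wnt2 molecules, and those with at least 1 of the 3 held 29.

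The 47 Gja4-negative ECs with Wnt2 were likewise rich in Stab1 and poor in Sema3g. All 47 had Stab1, at a level of 1799.9 against 798.4 in the other Gja4-negative ECs, and Sema3g had 1 molecule among them. Their Apln level was 115.7 against 708.8, and among Gja4-positive ECs it was 86 with Wnt2 and 203.6 without. Vwf was at 835.7 against 310.8 in Gja4-negative ECs, while in Gja4-positive ECs it stood at 485.8 with Wnt2 and 479.9 without. The order of the groups for Wnt2 accordingly changed with the limit on Gja4. Wnt2 had a ratio of 0.519 (0.296 to 0.852) for cells with 4 or more Gja4 molecules, 0.0481 for those with 11 or more, and 0.762 (0.497 to 1.13) for the 312 Gja4-positive ECs with Sema3g, Hey1 or Mecom. The ratio of the summed ligands was 0.912 at 4 or more Gja4 molecules and 1.04 in those 312 cells.

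The Wnt receptors were led by Fzd6. It was seen in 73.1% of Gja4-positive ECs against 42.4%, at a level of 214.3 against 111.8 (ratio 1.92, 1.75 to 2.1), and it held 658 of the 882 receptor molecules. Of 8 receptors and co-receptors with enough molecules, Fzd9 was called higher on 11 molecules against 18 (ratio 2.85, 1.22 to 6.38), Fzd5 (11.7 against 26.5, ratio 0.442) and Fzd7 (4.23 against 8.85, ratio 0.478) were called lower, and Fzd6, Fzd8, Lgr4, Fzd3 and Fzd4 were not called. Over all targets, 29% were higher and 20.3% lower. Blood cells of the library had Fzd5 in 17.6% and Fzd7 in 20%, against 8.31% and 3.44% of Gja4-positive ECs, and Fzd9 in 2.83% against 2.58%. Without cells holding 2 or more molecules of the lists of other cell types, the ratio of Fzd9 was 0.736 (0.0166 to 5.49). Counted per cell, the ratios of Fzd5 and Fzd7 were 0.675 and 0.729, and none of these ratios was called. Fzd4, the receptor of retinal and barrier vessels, had a ratio of 0.776 (0.583 to 1.02), Lgr4, a receptor of R-spondins, 1.13 (0.874 to 1.44), Fzd8 1.17 and Fzd3 0.973. Lgr5 had 2 molecules in 1 Gja4-positive EC. The median of the list was 0.07 on the log2 scale.

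Within the cytoplasm and nucleus the pathway targets were flat or lower as shares of molecules, which the 6 abundant higher targets reduce for all others. None of the 6 targets of signal transduction with enough molecules (Cdk14, Apc, Ccny, Dvl1, Axin1 and Dvl2) was called, and their median was -0.48. Wls, which carries all Wnt ligands to the cell surface, stood at 130.3 against 170.5 (ratio 0.764, 0.685 to 0.849). It was seen in 54.2% of Gja4-positive and 53.5% of Gja4-negative ECs, and in 44.3% and 50.6% after thinning. Of the 6 transduction targets, all but Dvl2 were seen in a larger share of Gja4-positive ECs, such as Apc in 53.3% against 45.1%. Gja4-positive ECs also held more molecules per cell. Among the nuclear factors and targets, Ccnd1 and Myc were called lower and Lef1, with 4 molecules against 32, was not. Over all targets, 20.3% were lower. Ccnd1 was seen in 54.2% (48.8 to 59.5) against 90.7% of cells, with medians of 1 and 4 molecules and levels of 240.6 and 1041.5 (ratio 0.231, 0.214 to 0.249). Myc, a driver of growth, stood at 127 against 297.2 (ratio 0.427, 0.384 to 0.474), with a ratio per cell of 0.652 that was not called. Both genes are also under other control than Wnt.

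The cell cycle genes were lower as a group. All 4 targets of the list were called lower, beside 20.3% of all targets compared. Their median was -1.84 on the log2 scale beside -0.09 over all targets. Mki67 and Top2a, of the proliferating nucleus, were seen in 15.5% and 16.3% of Gja4-positive ECs against 31.1% and 32.2%, with ratios of 0.291 (0.254 to 0.331) and 0.269 (0.237 to 0.305). Cdk1, the mitotic kinase, was seen in 30.1% against 49.8% (ratio 0.267, 0.239 to 0.297), and Ccne1 in 8.31% against 14.6% (ratio 0.46, 0.362 to 0.577). The ratio of Ccne1 was 0.701 per cell and was not called, whereas the other 3 stayed lower. Thinning each cell to 50 molecules gave 14.9% against 36.5% for Mki67 and 23.5% against 54.6% for Cdk1. Even so, 135 of the 349 cells held Mki67, Top2a or Cdk1, as did 1428 of the 2486 Gja4-negative ECs. The 76 Gja4-positive ECs with Mki67 or Top2a stood at 496.4 for Sema3g and 317.5 for Hey1, and Cxcl12 at 202.4 was below the 645.4 of the whole group.

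Markers of other vessels split. Stab1 was called lower, at 386.5 against 831 (ratio 0.465, 0.438 to 0.494), but its ratio per cell was 0.709 and was not called. Vwf, known from veins and large vessels, stood at 480.3 against 327.9 (ratio 1.46, 1.38 to 1.55). Among 4 capillary targets, Apln, the apelin of sprouting tip cells, was seen in 30.4% against 71.8% of cells, at 196 against 689.5 (ratio 0.284, 0.261 to 0.309). It was called lower, beside 20.3% of all targets compared. The other 3 were not called, with ratios of 1.62 for Ecm1, 1.55 for Stc1 and 1.01 for Cdh13. Ccn3, a matricellular protein, and Ccar2, a cell cycle and apoptosis regulator, had ratios of 0.487 and 0.461, which were 0.743 and 0.704 when counted per cell.

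Markers of other cell types moved with some of these results. Of the 3 mural targets, Rgs5 (139 molecules against 97, ratio 6.69) and Acta2 (54 against 49, ratio 5.15) were called higher and Tagln (28 against 94, ratio 1.39) was not, beside 29% higher over all targets, and the list stood at 72 (62.8 to 82.1) against 16.7 (14.7 to 19). Rgs5 was in 14 Gja4-positive ECs, with 66 molecules in 1 cell and 109 of the 139 in 3 cells. Cells with Rgs5, Acta2, Tagln or Notch3 numbered 36 and had a median depth of 164.5 molecules. In the mesenchymal and bone-forming list, 9 targets had enough molecules. Alpl (26 molecules against 18, 15 in 1 cell), Postn (9 against 16) and Aspn (12 against 24, 9 in 1 cell) were called higher. Ccn3 and Spp1 were called lower, where 29% of all targets were higher and 20.3% lower. This list stood at 72.3 (63.1 to 82.4) against 110.2 (104.8 to 115.7). The blood cell list, with Ptprc at 0 by the rule, stood at 147.5 against 162.3, nearly all of it Srgn (437 of 453 molecules), which ECs also express, and Acp5 had 13 molecules. Cartilage genes had 7 molecules, all of Sox9, and Acan, Col2a1 and Col10a1 were at 0. Without cells holding 2 or more molecules of these 4 lists together, Cxcl12, Mgp, Hey1, Sema3g, Mecom, Dkk2 and Dkk3 were among those still higher. Rgs5, Acta2, Postn and Aspn had no molecule left in Gja4-positive ECs, but they are on the lists, so the limit itself removed them. The limit also left out ECs for Srgn alone, whose upper quartile in Gja4-positive ECs was 2 molecules. The ratio was then 31.4 for Cxcl12 (25.9 to 38.3), 17.1 for Mgp, 13.3 for Hey1, 9.95 for Sema3g and 9.84 for Mecom. The part of other cell types in the remaining differences was not tested.

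Under the same rule, the other libraries gave 42 Gja4-positive ECs of 373 ECs in E18.5 BM cells (11.3%, 8.24 to 14.9) and 549 of 1663 in Adult BM cells (33%, 30.8 to 35.3). Stage, preparation and depth cannot be told apart between libraries. In E18.5 BM cells, 50 targets had enough molecules, and 8 were higher (16%) and 12 lower (24%). Among them were 6 of the 11 higher targets of E18.5 EC that could be compared, namely Cxcl12, Mgp, Hey1, Sema3g, Mecom and Fbln5, and 10 of the 14 lower ones. In Adult BM cells, 14 of 81 were higher (17.3%) and 26 lower (32.1%), with 13 of 18 and 10 of 14 of the targets called in E18.5 EC, and the median over all targets was -0.28 in the fetal and -0.61 in the adult library. All 14 lower targets were on the same side of 1 in each library. Of the higher targets compared, 9 of 11 were on the same side in E18.5 BM cells and 15 of 18 in Adult BM cells. S100a4 and Alpl, higher in E18.5 EC, had ratios of 0.753 and 0.446 in E18.5 BM cells, where neither was called.

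Sema3g had ratios of 12 in E18.5 EC, 9.43 (7.08 to 12.6) in E18.5 BM cells and 10.1 (9.47 to 10.8) in Adult BM cells, and Mecom had ratios of 7.36, 5.89 and 7.68. For Cxcl12 the ratios were 50.6, 17.6 (11.7 to 27.2) and 2.1 (2.02 to 2.17). In the adult library 92.5% of Gja4-positive ECs had Cxcl12, at 1063.6, and so did 56.2% of Gja4-negative ECs, at 507.3. The fetal Gja4-negative ECs stood at 12.8 and 16. In the adult library the top 10 cells held 39.7% of the Cxcl12 of Gja4-negative ECs, with 427 molecules in 1 cell, and 14.8% of that of Gja4-positive ECs. Kitl had ratios of 1.06, 0.731 and 2.15. Mgp in E18.5 BM cells was seen in 4 of the 42 cells, and the 3 cells with 10 or more molecules held 99.8% of its 533 molecules. In the adult library 251 of 549 cells had it, and the 70 cells with 10 or more molecules held 89.4% of it. In the adult library, 98% of Gja4-positive ECs and 97.1% of Gja4-negative ECs had a molecule of the blood cell list, at levels of 761.4 and 1824.2. Srgn held 6540 of its 6593 molecules in Gja4-positive ECs. Bglap3, of the bone-forming list, was likewise widespread, in 93.6% and 90.6% of these cells. The 42 Gja4-positive ECs of E18.5 BM cells held 2 molecules of Wnt ligands and the 549 of the adult library held 120, and Wnt2 had none in either.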

How the data were processed

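The members and the gene lists were chosen with earlier results of these data known. Cells were sorted or depleted, loaded on microwell cartridges, and transcripts were tagged with molecular identifiers and amplified with the panel primers. The BD Targeted Rhapsody Analysis Pipeline 1.8 was run by the authors, per the file headers, while the methods name another release, and the submitters' processing notes give the build mm10. The deposited counts are whole numbers of molecules per cell barcode and amplicon, with no normalization by the authors, in a raw form and with 2 successive corrections of identifier errors, called RSEC and DBEC. Read counts of the same files were not used. The file of E18.5 EC held 4043 barcodes with 432987 molecules, E18.5 BM cells 12884 with 1837897 and Adult BM cells 7948 with 6304495, and the methods state the same cell numbers. No doublet caller was run, and the sources used here do not say whether doublets were removed. Cells with 20 or more molecules were kept, which left out none.

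DBEC-adjusted molecules were summed over the amplicons of a gene, and cells were gated as described in the report. A level is the molecules of a target per 10000 molecules outside the 4 genes of the rule, summed over cells. Ratios have exact conditional (Clopper-Pearson) 95% intervals, levels exact Poisson intervals and shares exact binomial intervals. Cells were thinned to 50 molecules with random seed 1. With 1 library per group, no test was run and no p-value is given. The script was tested on simulated data. Groups came from the sample titles. Named targets were the 15 with the highest and the 15 with the lowest ratio past 2-fold, the given markers, every Wnt ligand, Wnt receptor, Notch and niche target with a molecule in the cells, the 3 most abundant targets, and the targets of the mural, blood, mesenchymal and cartilage lists. Of other lists up to 4 targets were to be named. Targets outside this rule (Ccar2, Wls, Lef1 and the transduction targets) and the subsets of cells with Wnt2, Cxcl12 or 10 or more Mgp molecules were picked after their values were seen. Some targets are not reported here and stayed in the totals and counts. Alternatives changed the limits on Gja4, depth and endothelial share, the error correction, the denominator, the thinning, the amplicons and the threshold. Gene positions came from GENCODE M21 (GRCm38), in which all 125 amplicon transcripts were found, and promoters from RefSeq (GRCm38.p6). Python 3.11.15, numpy 2.4.6, pandas 2.3.3, scipy 1.17.1 and matplotlib 3.10.9 were used.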

Additional observations from a re-analysis of the deposited data

Results flagged for a closer look

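Cytl1, Dkk3 and Vwf lay on opposite sides in fetal and adult libraries. Cytl1 had 28 molecules in Gja4-positive ECs of E18.5 EC and 0 in Gja4-negative ECs, while in Adult BM cells its ratio was 0.193 (67 molecules against 382, interval 0.147 to 0.251). Dkk3 had a ratio of 4.84 in E18.5 EC and 0.308 (7 molecules against 25) in Adult BM cells. Vwf had a ratio of 4.99 (3.79 to 6.57) in E18.5 BM cells and 0.209 (0.19 to 0.229) in Adult BM cells, with 1.46 in E18.5 EC. These differences between libraries were not tested, and stage cannot be told apart from library, preparation and depth.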

How the results depend on the processing

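All alternatives were recomputed on E18.5 EC, and the cause of a change was not tested except where the alternative fixes it. The 20 higher targets were 12 after thinning and 10 without cells holding 2 or more molecules of the lists of other cell types. They were 12 without cells with Mki67, Top2a or Cdk1, 13 at 3-fold and 12 with at least 100 molecules. The 14 lower targets were 8 with Gja4 at 1 or more, 6 with RSEC-adjusted molecules, 8 after thinning, 6 counted per cell and 6 at 3-fold. Thinning left out the shallower cells, and the 3-fold limit is stricter by construction. The summed Wnt ligand ratio of 1.94 was 2.54 with Gja4 at 1 or more, 0.912 at 4 or more and 0.777 at 11 or more. It was 1.18 without cells holding 2 or more molecules of the lists of other cell types, 2.57 without the deepest 5% of cells and 2.95 per cell. In cells with Sema3g, Hey1 or Mecom it was 1.04, and without cycling cells it was 1.21. The share of 11.8% was 15.8% with Gja4 at 1 or more, 8.7% at 4 or more and 14.4% for cells with 50 or more molecules.

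Single ratios changed side as follows. With Gja4 at 4 or more, Aspn was at 0, Postn 0.374 and Wnt2 0.519. With Gja4 at 11 or more, Aspn was at 0, Postn 0.59 and Wnt2 0.0481. Without cells holding 2 or more molecules of the lists of other cell types, Fzd9 was 0.736 and Wnt2 0.822. Acta2, Aspn, Postn and Rgs5, which are on those lists, were then at 0. In cells with Sema3g, Hey1 or Mecom, Wnt2 was 0.762. Without mural marker cells Aspn was at 0, and without cycling cells Postn was 0.274. Mgp was 0.407 once Gja4-positive ECs with 10 or more Mgp molecules were left out, a cut on Mgp itself. Of 1051 ratios recomputed for 53 targets, 749 moved by less than counting error, 286 moved further and 16 went from a call to the other side of 1. Cytl1 and Lgr5, with no molecule in Gja4-negative ECs, had no ratio to recompute, nor had 2 single values of other targets. Limits on Gja4 at 11, the counts per cell and the sets defined by other genes were chosen after seeing the data. No paired analysis was possible because each group has 1 library, and no replicate could be left out. Depth limits rare targets, since a count of 0 in the 30710 molecules of Gja4-positive ECs allows a level of up to 0.977 per 10000 (3 molecules).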
